A study of Homo sapiens with 4 samples.

Results

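Wide gene-end peaks are stretches of open chromatin of 1000 bp or more that lie within 1 kb of either end of exactly 1 protein-coding gene. They were chosen by length and position alone, from a table of 190348 ATAC-seq peaks of LM2 breast cancer cells. No count column entered the choice, but length is itself an outcome of peak calling. The choice is therefore not shown to be independent of the signal. Whether the unequal depths of the libraries shaped the lengths was not tested. The rule found 4880 wide peaks at 4836 genes. The peaks set beside them are the 8824 gene-end peaks under 400 bp, called narrow here, at 6279 genes. A further 6591 gene-end peaks had a length in between. Wide peaks ran from 1000 to 2715 bp, with a median of 1237 bp, whereas narrow peaks had a median of 213 bp. Gene ends came from RefSeq GRCh38.p14, and peaks on chromosome 1 that start below position 250000 were left out.

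In ATAC-seq, Tn5 transposase inserts sequencing adapters into DNA that nucleosomes leave free, so a peak marks an accessible stretch. At an active gene the stretch just upstream of the transcription start is kept free of nucleosomes, and many housekeeping starts lie in CpG islands, where CG dinucleotides are frequent and mostly unmethylated. Remodelling enzymes of the ISWI family slide nucleosomes, and CECR2, a bromodomain protein that binds acetylated histones, is known as a partner of ISWI ATPases.

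LM2 is a human line made from MDA-MB-231 breast cancer cells that has a raised capacity to colonise the lung. Both groups were grown in DMEM with serum, penicillin and puromycin, and 50000 cells entered each library. The control group carried a nontargeting guide and the other group a CECR2 deletion labelled deletion 1, made with guide sg1 and called sg1 here; there were 2 libraries per group. No label says whether sg1 is 1 clone or a pool, nor whether the replicates are separate cultures; p-values therefore measure how far these libraries spread, and that spread may be technical. In bulk libraries, a change in how many cells open a site and a change in how far each cell opens it cannot be told apart.

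The libraries kept 21002477 and 15561701 control counts, and 43519018 and 38924086 sg1 counts, outside the excluded stretch of chromosome 1. That stretch took 17.99% and 17.88% of control counts, and 25.41% and 25.36% of sg1 counts, and the part that depth and this share had in the results was not tested. CECR2 had no wide peak. Its gene-end peaks of 187 and 583 bp did not pass the test (log2 fold change -0.61, SE 0.474, and 0.10, SE 0.215, edgeR adjusted p = 0.357 and 0.770), and a peak count does not check a deletion made by a guide. Of the mesenchymal markers, VIM, AXL, CD44, CAV1, ZEB1 and FN1 had gene-end peaks of 17.4 to 82.6 CPM (counts scaled to library size) over all libraries. Of the markers of other cells, CDH1 reached 0.448 CPM and PTPRC 0.666 CPM, and ESR1, PECAM1, CDH5 and DCN had no peak at a gene end of theirs alone. EPCAM at 14.6 CPM, GATA3 at 6.51 CPM, FOXA1 at 3.50 CPM, CD3E at 29.5 CPM, SPI1 at 9.24 CPM and COL1A2 at 1.79 CPM did have one or more.

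To show what the DNA under such a peak looks like, RefSeq start windows (250 bases before to 50 after a listed start, GRCh38.p14) are printed for 6 genes, read 5′ to 3′ on the gene's strand. They are the leading falls and rises with an entry inside their wide peak, then the longest and the tallest such peak. Capitals mark CG dinucleotides. Every window lay wholly inside its peak.
ENKUR: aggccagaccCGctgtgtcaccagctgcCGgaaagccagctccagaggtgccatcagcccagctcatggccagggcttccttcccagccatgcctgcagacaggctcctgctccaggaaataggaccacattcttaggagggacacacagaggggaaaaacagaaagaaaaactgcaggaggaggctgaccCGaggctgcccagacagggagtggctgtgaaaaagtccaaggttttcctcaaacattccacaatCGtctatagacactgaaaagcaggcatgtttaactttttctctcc
CXCL1: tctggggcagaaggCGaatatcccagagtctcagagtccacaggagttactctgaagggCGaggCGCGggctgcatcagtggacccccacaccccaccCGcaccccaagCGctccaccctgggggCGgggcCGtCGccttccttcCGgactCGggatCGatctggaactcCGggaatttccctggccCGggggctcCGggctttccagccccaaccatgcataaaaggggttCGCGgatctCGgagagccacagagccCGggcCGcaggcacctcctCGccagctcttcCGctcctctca
FAM24B: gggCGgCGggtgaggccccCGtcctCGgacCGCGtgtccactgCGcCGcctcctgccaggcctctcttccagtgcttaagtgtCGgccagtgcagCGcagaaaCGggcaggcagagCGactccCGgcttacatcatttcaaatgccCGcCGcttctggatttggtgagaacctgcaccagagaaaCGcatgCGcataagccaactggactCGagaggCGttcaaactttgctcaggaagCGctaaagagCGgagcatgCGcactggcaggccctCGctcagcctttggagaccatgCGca
B3GNT8: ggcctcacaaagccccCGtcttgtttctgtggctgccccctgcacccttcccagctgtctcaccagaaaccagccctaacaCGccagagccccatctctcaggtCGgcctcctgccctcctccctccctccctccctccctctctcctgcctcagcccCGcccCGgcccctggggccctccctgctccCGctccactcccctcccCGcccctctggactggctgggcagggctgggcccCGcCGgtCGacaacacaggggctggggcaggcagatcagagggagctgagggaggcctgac
VLDLR: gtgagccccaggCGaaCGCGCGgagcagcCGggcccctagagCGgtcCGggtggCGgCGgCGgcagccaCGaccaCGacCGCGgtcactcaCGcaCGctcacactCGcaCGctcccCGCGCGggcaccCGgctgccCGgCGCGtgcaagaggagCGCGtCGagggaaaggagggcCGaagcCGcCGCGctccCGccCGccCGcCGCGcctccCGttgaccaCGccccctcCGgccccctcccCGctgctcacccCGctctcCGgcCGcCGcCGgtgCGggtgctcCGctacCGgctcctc
NFYA: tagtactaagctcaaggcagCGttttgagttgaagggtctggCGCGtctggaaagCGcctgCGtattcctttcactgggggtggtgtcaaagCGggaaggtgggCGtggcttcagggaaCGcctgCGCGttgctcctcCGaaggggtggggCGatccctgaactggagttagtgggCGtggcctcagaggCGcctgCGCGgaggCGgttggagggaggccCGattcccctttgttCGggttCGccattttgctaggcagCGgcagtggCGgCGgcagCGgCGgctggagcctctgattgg
The ENKUR window lies at chr10:25062278-25062577 (minus strand) and holds 4 CG, the fewest of these 6. The CXCL1 window at chr4:73869143-73869442 (plus strand) holds 22 CG and matches the NF-kB motif GGANTTNCC, the ETS core CCGGAAG and the GC box GGGCGG on one strand or the other. The FAM24B window at chr10:122879592-122879891 (minus strand) holds 24 CG, with a GC box and the NRF1 motif TGCGCA. The B3GNT8 window at chr19:41427325-41427624 (minus strand) holds 10 CG and a GC box. The VLDLR window at chr9:2621537-2621836 (plus strand) holds 49 CG, the most of these 6, and a GC box. The NFYA window at chr6:41072724-41073023 (plus strand) holds 25 CG and a CCAAT box (CCAAT). A match is a description of these letters, not a site shown to be bound.

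Wide gene-end peaks were mostly higher in sg1 where they changed. All 4880 could be tested. Levels are CPM after TMM scaling, and changes are log2 fold changes of sg1 against control. Of these peaks, 1834 rose (37.6%) and 327 fell (6.70%) in edgeR's quasi-likelihood test at a Benjamini-Hochberg adjusted p of 0.05, while 2719 did not pass. Over all 184717 tested peaks the shares called were 11.5% higher and 16.8% lower, so the order of the 2 directions was the opposite there. The median log2 fold change was 0.16 in wide peaks and 0.02 over all tested peaks. The upward lean was not particular to wide peaks. Gene-end peaks of intermediate length had 24.5% higher and 11.3% lower, with a median of 0.14. Peaks at no single gene end had 10.4% higher and 17.9% lower, with a median of -0.01. Most single changes were small. The 5th to 95th percentile of wide peaks ran from -0.26 to 0.58, the risen peaks had a median of 0.37 and the fallen peaks one of -0.32. A change of more than 2-fold was called at 17 wide peaks upward and at 2 downward.

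**Figure D1:**
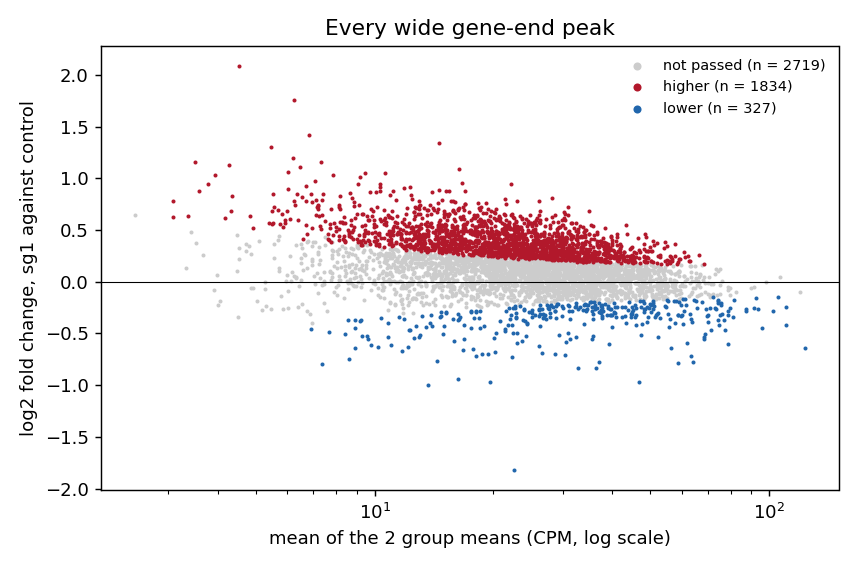
Log2 fold change of sg1 against control for each of the 4880 wide gene-end peaks (vertical axis) by its mean level in CPM (horizontal axis, log scale), coloured by edgeR call. The 1834 risen peaks spread over nearly the whole range of levels and the largest rises sit at low levels, while the 327 fallen peaks reach the highest levels.

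The same direction was seen in each library. Wide peaks took 12.3% of the counts in each control library, against 13.7% and 13.8% in the sg1 libraries. The Wilson 95% intervals, which cover counting error only, ran from 12.31% to 12.34% and 12.33% to 12.36% in the control and from 13.68% to 13.70% and 13.84% to 13.86% in sg1. The group means were 12.3% ± 0.0180 and 13.8% ± 0.110 (SD, n = 2), a ratio of 1.12, while wide peaks made up 2.57% of all peaks and 8.003% of the bases in peaks. The groups did not overlap. With the chromosome 1 stretch kept in the total, the shares were 10.1% and 10.3%, so most of this gain depends on leaving it out. The median level of a wide peak was 23.05 and 22.90 CPM in the control libraries and 25.57 and 26.05 CPM in sg1. The 2 groups did not overlap at 74.4% of wide peaks, against 63.7% of all tested peaks. By level, the wide share was the higher one from 2 to 20 CPM, with 76.9% against 73.0% at 10 to 20 CPM. From 20 CPM it was the lower one, with 73.8% against 75.3% up to 40 CPM and 73.3% against 80.3% beyond.

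Narrow gene-end peaks had a median change of the same size, but few of them were called. Of 8824 narrow peaks, 8613 could be tested; 701 rose (8.14%) and 446 fell (5.18%), with a median log2 fold change of 0.19. The order of the 2 directions did not hold in DESeq2, which called 152 narrow peaks higher and 191 lower, and edgeR called 273 higher and 231 lower without sg1 replicate 1 and 267 and 221 without sg1 replicate 2. Narrow peaks took 1.70% ± 0.0256 of control counts and 1.90% ± 0.00575 of sg1 counts (SD, n = 2), again a ratio of 1.12. With the chromosome 1 stretch kept in the total, the shares were 1.39% and 1.42%, so most of this gain also depends on leaving it out. The classes also differed in level and spread. The median level was 24.4 CPM in wide and 1.46 CPM in narrow peaks, or 18.8 against 6.88 CPM per kb of peak. The median SE of a log2 fold change was 0.0869 in wide and 0.322 in narrow peaks, and narrow changes ranged from -0.94 to 1.12 (5th to 95th percentile). Over all levels, wide peaks thus had more calls, a smaller error and a like median change; the difference between the classes was not tested.

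Among wide peaks, the rise was larger the lower the peak. The median log2 fold change was 0.41 in the 34 wide peaks of 2 to 5 CPM, 0.33 in the 309 of 5 to 10, 0.24 in the 1392 of 10 to 20, 0.15 in the 2421 of 20 to 40 and 0.01 in the 724 of 40 CPM or more. The tallest class was split, with 121 peaks higher and 125 lower. The median of narrow peaks went down along the same axis, from 0.24 under 2 CPM to 0.15 at 2 to 5, 0.11 at 5 to 10 and -0.03 in the 92 peaks of 10 to 20 CPM. In each of the classes from 2 to 20 CPM the wide median was thus the higher one. At 10 to 20 CPM, where the median SE was 0.107 in wide and 0.123 in narrow peaks, 45.1% of wide peaks rose and 3.88% fell, against 11.96% and 13.04% of narrow peaks and 19.04% and 25.49% of all tested peaks. Gene-end peaks of intermediate length lay between wide and narrow ones in that class, with 30.6% higher and 9.22% lower. Equal CPM is not equal density: the median there was 12.5 CPM per kb in wide and 35.1 in narrow peaks. With offsets fitted by loess to the level of each library, the trend of wide peaks was flatter but kept its order. It ran from 0.45 at 2 to 5 CPM to 0.09 at 40 CPM or more.

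**Figure D2:**
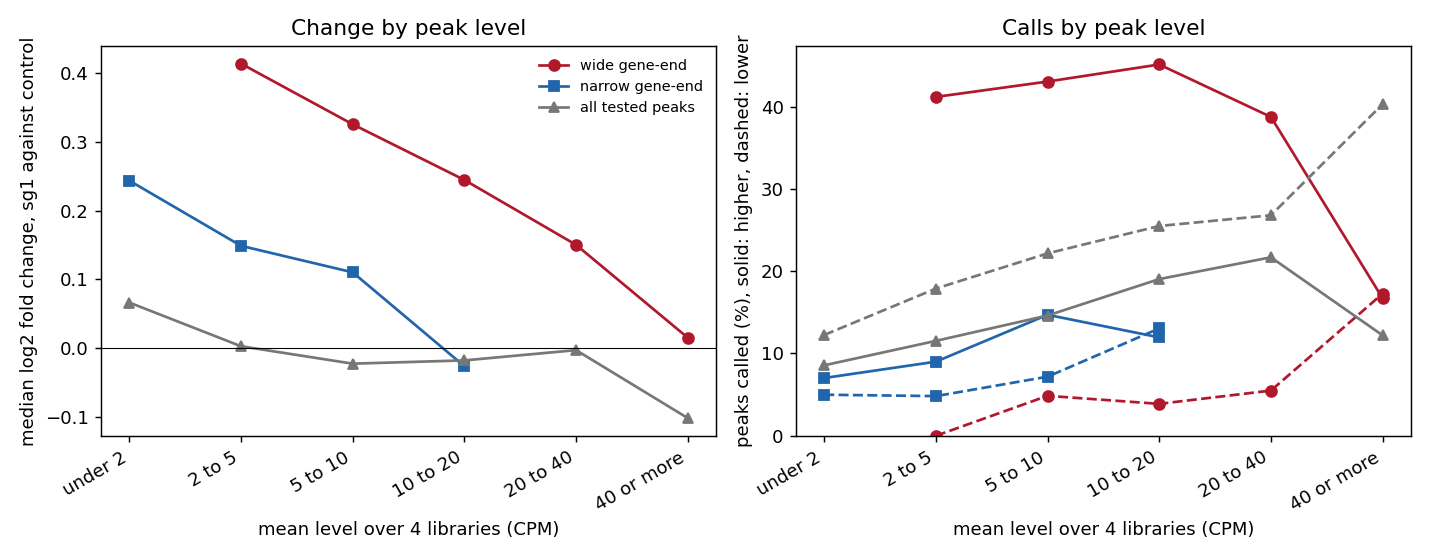
Left: median log2 fold change of sg1 against control by mean level class in CPM, for wide gene-end, narrow gene-end and all tested peaks. Right: percent of peaks higher (solid) and lower (dashed) in the same classes; classes under 20 peaks are not drawn. Wide peaks have the highest median in each class drawn for them, and at 40 CPM or more their higher and lower shares meet at 16.7% and 17.3%.

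Longer peaks rose more often. The share called higher was 33.9% of 2546 peaks from 1000 to 1249 bp, 40.7% of 1424 from 1250 to 1499 bp, 42.5% of 831 from 1500 to 1997 bp and 49.4% of 79 from 2000 bp. The share called lower went from 7.74% to 2.53% over the same classes. The median log2 fold change moved little, from 0.15 to 0.19, while the median SE went from 0.0919 to 0.0752. The 1000 bp threshold itself marked no step. The 281 gene-end peaks of 1000 to 1024 bp had a median of 0.16, with 99 higher and 20 lower, and the 299 of 975 to 999 bp just outside had 0.16, with 99 higher and 19 lower.

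The wide peaks with the largest falls included chemokine and inflammasome genes. The peak of TMEM132A, a transmembrane protein, gave 37.2 and 32.9 CPM in the control and 9.06 and 10.9 CPM in sg1 (chr11:60924971-60926282). Its log2 fold change was -1.82 (SE 0.0976, edgeR adjusted p = 4.18e-16), the largest fall of any wide peak. The NLRP10 peak, at a NOD-like receptor gene, gave 18.6 and 17.9 CPM in the control and 9.49 and 8.70 CPM in sg1 (log2 fold change -1.002, SE 0.111, edgeR adjusted p = 1.37e-08). These were the 2 falls beyond 2-fold. The start of ENKUR, a protein of cilia and sperm tails whose low CG window is printed above, gave 62.3 and 61.6 CPM against 32.0 and 31.1 CPM. It fell by 0.97 on the log2 scale (SE 0.0667, edgeR adjusted p = 2.44e-13). The peak of MMP17, a membrane-bound matrix metalloproteinase, gave 26.2 and 25.6 CPM against 13.1 and 13.4 CPM (log2 fold change -0.97, SE 0.0923, edgeR adjusted p = 6.02e-10).

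CXCL1 and CXCL2 encode chemokines that draw neutrophils, and both starts were lower in sg1. The CXCL1 peak, with the NF-kB motif match in its printed window, gave 21.3 and 21.5 CPM in the control and 10.6 and 11.7 CPM in sg1 (chr4:73868768-73869984; log2 fold change -0.94, SE 0.102, edgeR adjusted p = 8.76e-09). The CXCL2 peak gave 43.7 and 40.6 CPM against 23.5 and 23.7 CPM (log2 fold change -0.84, SE 0.0754, edgeR adjusted p = 1.52e-10). NLRP3, the sensor of an inflammasome, gave 45.1 and 48.4 CPM against 24.5 and 28.1 CPM (log2 fold change -0.83, SE 0.0769, edgeR adjusted p = 2.95e-10). The lowest of the 8, DRGX, a homeobox gene of sensory neurons, gave 10.0 and 8.61 CPM against 5.22 and 5.58 CPM (log2 fold change -0.79, SE 0.153, edgeR adjusted p = 1.54e-04). The choice of the 8 required that all control values lie above all sg1 values, so that separation is no result.

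The wide peaks with the largest rises were low in the control. They were ranked by fold change, with groups apart and a count threshold set on the higher group only. Their low control level is therefore in part fixed by the choice. The FAM24B start gave 1.75 and 1.70 CPM in the control and 7.59 and 7.08 CPM in sg1 (chr10:122878934-122880296; log2 fold change 2.09, SE 0.212, edgeR adjusted p = 2.28e-09). The GLB1L2 peak, at a relative of the beta-galactosidase gene, gave 3.55 and 2.02 CPM against 9.18 and 10.3 CPM (log2 fold change 1.76, SE 0.191, edgeR adjusted p = 9.82e-09). KRT8 encodes a keratin of simple epithelia. A wide peak near its far end gave 3.26 and 4.24 CPM against 9.56 and 10.3 CPM (log2 fold change 1.42, SE 0.169, edgeR adjusted p = 5.95e-08). RARRES2, which encodes the chemoattractant chemerin, gave 9.38 and 6.91 CPM against 21.8 and 20.2 CPM (log2 fold change 1.35, SE 0.120, edgeR adjusted p = 1.17e-10). It was the only one of the 8 above 5 CPM in either control library.

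The other 4 rose from 2.02 to 4.57 CPM in the control libraries to 4.50 to 10.3 CPM in sg1. B3GNT8, an enzyme that extends sugar chains, had a log2 fold change of 1.30 (SE 0.183, edgeR adjusted p = 1.29e-06). RASSF9, a Ras association domain protein, had 1.20 (SE 0.171, edgeR adjusted p = 1.69e-06). OSBP2, an oxysterol binding protein, had 1.16 (SE 0.224, edgeR adjusted p = 1.61e-04). ZNRF3, a ubiquitin ligase that removes Wnt receptors from the cell surface, had 1.15 (SE 0.156, edgeR adjusted p = 6.31e-07). None of these 16 peaks lost its call under any alternative that was run.

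**Figure D3:**
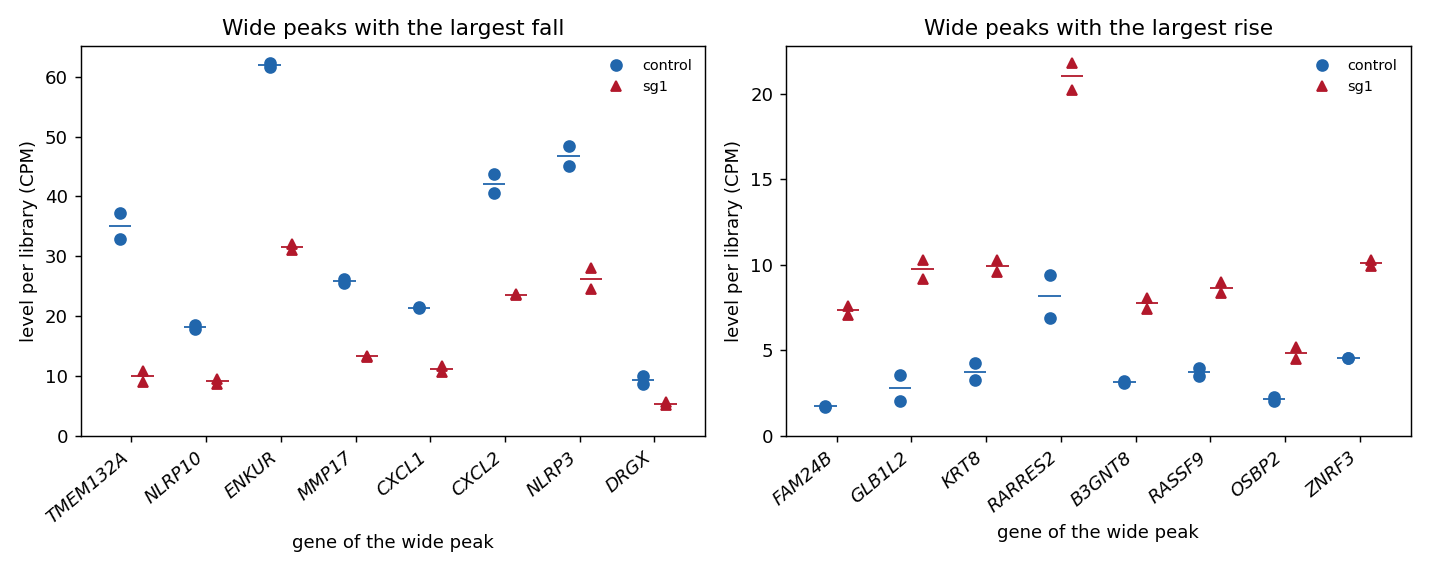
Level in CPM of the 8 wide gene-end peaks with the largest fall (left) and the 8 with the largest rise (right); each point is 1 library (circles control, triangles sg1) and each line a group mean of 2 libraries. The 16 peaks were chosen for groups that do not overlap; 7 of the 8 risen peaks are under 5 CPM in both control libraries.

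The longest and the tallest wide peaks changed less. NRP1, a coreceptor for VEGF and semaphorins, had the longest peak at 2715 bp, with 56.5 and 53.1 CPM in the control and 65.0 and 68.8 CPM in sg1 (log2 fold change 0.29, SE 0.0631, edgeR adjusted p = 7.56e-04). VLDLR, a receptor for lipoproteins and reelin, had a peak of 2583 bp with 49.1 and 52.4 CPM against 56.8 and 53.6 CPM (log2 fold change 0.12, SE 0.0657, edgeR adjusted p = 0.163), a peak that passed with loess offsets (0.20, edgeR adjusted p = 0.0220) and with library size only (0.17, edgeR adjusted p = 0.0479). The third longest, 2562 bp at the zinc finger gene ZBTB10, rose by 0.24 (SE 0.0691, edgeR adjusted p = 0.00856), a call that was lost without control replicate 1 or either sg1 replicate. The tallest was WDR74, a factor of ribosome assembly, at 154 and 146 CPM against 96.4 and 96.3 CPM. It fell by 0.64 on the log2 scale (SE 0.0505, edgeR adjusted p = 7.00e-12). UBP1, a transcription factor, gave 130 and 123 CPM against 92.1 and 97.8 CPM (log2 fold change -0.41, SE 0.0530, edgeR adjusted p = 2.40e-07). NFYA, the subunit of NF-Y that contacts the CCAAT box, gave 123 and 124 CPM against 115 and 116 CPM (log2 fold change -0.10, SE 0.0501, edgeR adjusted p = 0.126). Its groups did not overlap, but it did not pass the test.

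Wide peaks sat on the transcription start. Of the 4880, 3989 belonged to a gene with a RefSeq start entry. Of those, 3822 lay at the start side of the gene, 130 at its other end and 37 at both, and 3611 (90.5%) covered a listed start. Only 623 of 6857 matched narrow peaks (9.09%) did so. Over all 8613 tested narrow peaks the median distance from the gene end was 474 bp. Wide peaks also lay within 1 kb of an end of a long non-coding RNA gene at 27.5%, against 15.5% of narrow peaks, and their genes had a median length of 40827 bp against 29040 bp. Length set the classes and a longer peak reaches more positions. The start and non-coding RNA contrasts therefore cannot be told apart from the choice by length. At the start side 37.4% of wide peaks rose and 6.31% fell. At the other end 33.8% rose and 17.7% fell, 44 and 23 of 130. The median log2 fold change was 0.16 and 0.08, and the difference between the ends was not tested.

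At 44 genes there were 2 wide peaks. Both rose at 8 genes, 1 rose and the other did not pass at 14, 1 fell and the other did not pass at 13, and neither passed at 8. One gene had a call in each direction: DCK, a kinase that salvages deoxynucleosides, with log2 fold changes of 0.22 (edgeR adjusted p = 0.0240) and -0.37 (edgeR adjusted p = 0.00545). Both DCK calls were lost in DESeq2 (adjusted p = 0.0969 and 0.0530) and without sg1 replicate 1. The genes with the greatest summed length were PLK2, KLF13 and PRDM8. At PLK2, a polo-like kinase, the start gave 32.7 and 32.9 CPM against 35.6 and 39.4 CPM (log2 fold change 0.19, SE 0.0753, edgeR adjusted p = 0.0545), and the far end 15.1 and 14.8 CPM against 10.3 and 10.1 CPM. The far end fell by 0.55 on the log2 scale (SE 0.113, edgeR adjusted p = 3.64e-04). KLF13, a Kruppel-like transcription factor, was alike, with 0.13 at the start (edgeR adjusted p = 0.192) and -0.43 at the far end (SE 0.0946, edgeR adjusted p = 7.94e-04).

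The other pairs show the same variety. PRDM8, a transcription regulator, had 0.13 (SE 0.0723, edgeR adjusted p = 0.179) at the start side and 0.42 (SE 0.124, edgeR adjusted p = 0.0102) at the far end; the second call was lost in DESeq2 (adjusted p = 0.0830) and without control replicate 1 or sg1 replicate 1. VIM, RELA, SLC2A1, F3 and SOCS2 were picked from the pairs after their values were seen. VIM, the intermediate filament of mesenchymal cells, had 85.3 and 85.8 CPM against 77.4 and 82.0 CPM at its start, which did not pass (edgeR adjusted p = 0.179). Its far end had 51.9 and 59.4 CPM against 38.7 and 39.2 CPM and fell by 0.51 (SE 0.0698, edgeR adjusted p = 7.88e-07). RELA, a subunit of NF-kB, rose at both peaks, by 0.44 (SE 0.0974, edgeR adjusted p = 7.07e-04) at the start and 0.27 (SE 0.0873, edgeR adjusted p = 0.0210) at the far end. SLC2A1, a glucose transporter, also rose at both, by 0.31 (edgeR adjusted p = 0.00319) at the start and 0.36 (edgeR adjusted p = 3.73e-04) at the far end. The start of F3, tissue factor, rose by 0.50 (edgeR adjusted p = 8.41e-05), and its far end had 0.13 (edgeR adjusted p = 0.376). SOCS2, a suppressor of cytokine signalling, rose by 0.35 (edgeR adjusted p = 0.00153) and 0.33 (edgeR adjusted p = 0.0247). Both SOCS2 calls, on chromosome 12, were lost when libraries were scaled within each chromosome (0.19 and 0.17), and the far-end call of RELA was lost in DESeq2 and without either sg1 replicate. The start calls of RELA and SLC2A1 were lost without sg1 replicate 2, and the second SOCS2 call also in DESeq2 and without control replicate 1 or either sg1 replicate.

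Starts rich in CG rose more often. The 3611 covered start windows held a median of 30 CG per 300 bases, against 17 in the 623 covered narrow starts, 22 in 15842 first starts of protein-coding genes and 14 in all 35116 windows. Windows of risen wide peaks held 32, of those that did not pass 29, and of fallen peaks 23. The fallen median was also 23 without chromosome X. From the class of 0 to 9 CG to that of 30 or more, the share of wide peaks called higher went from 19.2% to 43.5%, and the share called lower from 17.5% to 2.86%. The median level differed little between these classes, from 22.1 to 25.9 CPM. CG content thus moved with the calls, and its part in the result was not tested.

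**Figure D4:**
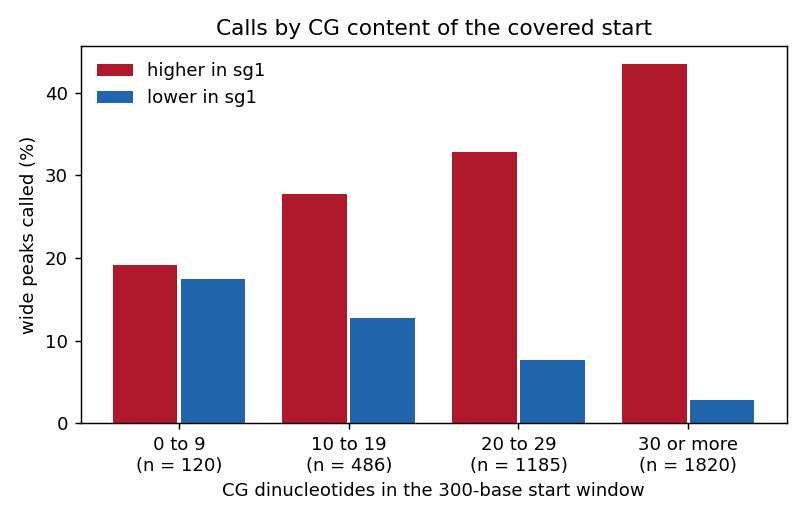
Percent of wide gene-end peaks called higher or lower in sg1 (bars from 0) by the number of CG dinucleotides in the 300-base start window they cover, with the number of peaks per class. Higher calls go from 19.2% to 43.5% and lower calls from 17.5% to 2.86% as CG increases.

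Start motifs were searched on both strands of the same windows. The GC box (GGGCGG, the core bound by Sp1-type factors) was in 78.3% of covered wide starts, 53.8% of narrow ones and 45.0% of all windows. The ETS core (CCGGAAG) was in 17.9%, 8.67% and 10.3%, and the NRF1 motif (TGCGCA) in 14.3%, 6.10% and 8.24%. The TATA box (TATAAA) was in 4.60%, 11.7% and 11.5%, and the AP-1 motif (TGANTCA) in 3.49%, 7.70% and 7.71%. Covered wide starts were thus richer than all windows in the motifs that hold CG and poorer in TATA and AP-1. First starts of protein-coding genes lay closer to them, with 58.5% for the GC box, 14.2% for the ETS core and 10.8% for NRF1. Those first starts had 9.63% for the TATA box and 5.75% for AP-1.

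Between fallen and risen wide starts, the CCAAT box (CCAAT, bound by NF-Y) differed most in percentage points, though not by ratio. It was in 53.8% of fallen and 29.5% of risen starts, with 35.2% of those that did not pass and 34.6% of all windows; without chromosome X the fallen share was 52.0%. The NF-kB motif (GGANTTNCC) was in 7.11% of fallen and 3.59% of risen starts, against 4.27% of all windows. The full cyclic AMP response element (TGACGTCA) was in 0.889% and 4.56%, against 1.85% of all windows, and its inner part (TGACG, which also lies in the full element) in 28.4% and 37.8%, against 24.6%. The E-box (CACGTG) was in 5.78% and 12.1%, against 7.26%, and the YY1 motif (AAGATGG) in 3.56% and 6.50%, against 5.84%. Starts with a CCAAT box had a median level of 28.1 CPM against 23.7 CPM without one, and a median log2 fold change of 0.11 against 0.18. By ratio, the full cyclic AMP response element, at 2 of 225 fallen starts and 61 of 1338 risen ones, differed most. Base composition was not matched between these sets, and the shares carry no test and show no binding.

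Chromosomes differed widely. On chromosome 7, 186 of 254 wide peaks rose and 1 fell, with a median log2 fold change of 0.35. Those are 73.2% and 0.394%, against 21.4% higher and 11.7% lower of all tested peaks of that chromosome. On chromosome 20 it was 94 of 130 (72.3%, against 16.0% of its tested peaks), on chromosome 12 168 of 254 (66.1% against 17.3%) and on chromosome 17 138 of 237 (58.2% against 16.97%). At the other end, 43 of 361 rose (11.9% against 6.50%) and 34 fell (9.42% against 21.4%) on chromosome 2. On chromosome 13, 8 of 103 rose (7.77% against 6.34%) and 17 fell (16.5% against 20.7%). Chromosome X was the only one with a median below 0, at -0.10, with 10 of 162 higher (6.17% against 4.73%) and 60 lower (37.0% against 27.2%). Its falls were concentrated between 40 and 80 Mb, where 38 of 53 wide peaks (71.7%) were lower with a median of -0.42. All tested peaks of that stretch had a median of -0.54, with 41.9% lower. Of its narrow peaks, 25.5% were lower.

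The medians of narrow peaks and of all peaks varied over chromosomes much as those of wide peaks did, though not in the same order. Across 23 chromosomes, whose points share the 4 libraries, Pearson's r between the medians of wide and narrow peaks was 0.942, and between wide and all tested peaks 0.954. On each of the 23 chromosomes the wide median lay above that of all tested peaks, by 0.07 to 0.24. The narrow median did so on each of them too, by 0.09 to 0.35. Without chromosomes 7, 12, 17 and 20, 31.2% of the remaining 4005 wide peaks rose and 7.72% fell, with a median of 0.13. When libraries were scaled within each chromosome, an alternative added after the differences were seen, 1703 wide peaks rose and 266 fell, with a median of 0.16. The cause of the differences between chromosomes was not tested.

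**Figure D5:**
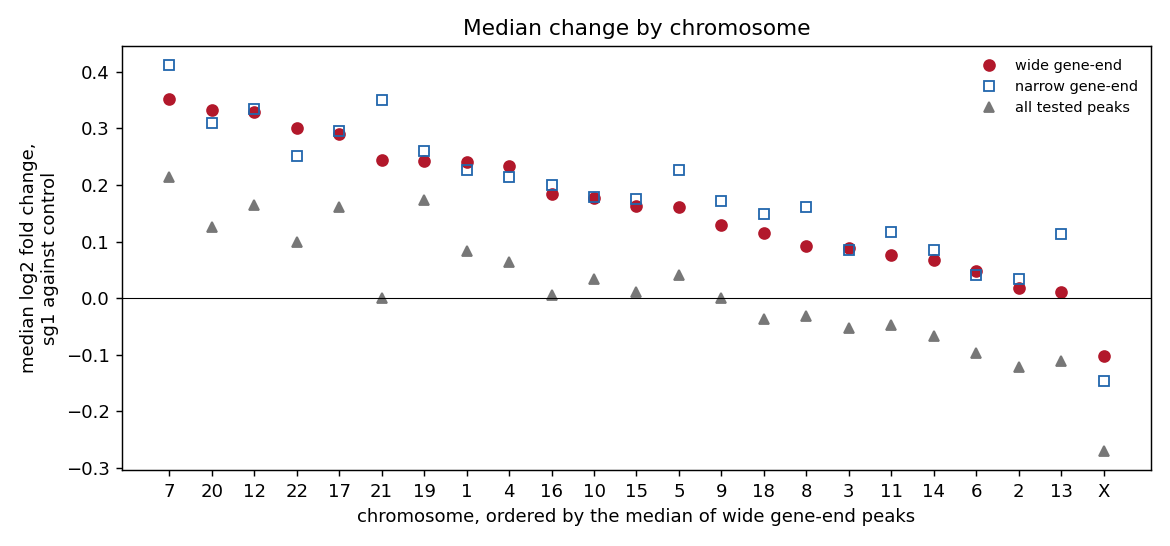
Median log2 fold change of sg1 against control per chromosome for wide gene-end, narrow gene-end and all tested peaks, ordered by the wide median. The wide median runs from 0.35 on chromosome 7 to -0.10 on chromosome X. Both the wide and the narrow median lie above that of all tested peaks on each of 23 chromosomes.

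Other peaks near a risen or fallen wide peak were called in its direction somewhat more often than all tested peaks. Of all tested peaks, 11.5% rose and 16.8% fell. Most neighbours were not called in either direction. Within 10 kb of risen wide peaks there were 4394 other tested peaks, of which 14.2% rose and 9.65% fell. Around fallen wide peaks there were 668, of which 4.94% rose and 24.4% fell. Around wide peaks that did not pass, 7.35% of 5551 rose and 12.6% fell. Neighbours share a chromosome with the wide peak, so these shares hold the chromosome differences too.

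Gene lists written from general knowledge held 382 genes in 16 lists, of which 140 had a wide peak. Their 146 wide peaks included 50 that rose and 22 that fell, with a median log2 fold change of 0.10, against 0.16 over all wide peaks. The counts of each list stand beside 37.6% higher and 6.70% lower over all wide peaks, and no list was tested against those shares. Among NF-kB targets, 15 of 30 genes had a wide peak; 1 rose and 9 fell, with a median of -0.22. These target genes encode chemokines, cytokines and inhibitors that inflammatory signals switch on. CCL20, a chemokine for dendritic cells and lymphocytes, gave 82.8 and 79.4 CPM in the control and 47.8 and 47.1 CPM in sg1 at a wide peak beside the gene's far end (log2 fold change -0.77, SE 0.0606, edgeR adjusted p = 6.35e-12). CXCL3, a neutrophil chemokine like CXCL1 and CXCL2, fell by 0.70 (edgeR adjusted p = 2.87e-08), and NFKBIA, the inhibitor that holds NF-kB in the cytoplasm, fell by 0.43 (edgeR adjusted p = 2.30e-05). TNFAIP2, CFLAR, PTGS2 and CSF2 were the others that fell, by 0.65 to 0.19. The calls of PTGS2 and CSF2 were lost in DESeq2 (adjusted p = 0.116 and 0.172) and without either sg1 replicate, and scaling within chromosomes brought CFLAR from -0.40 to -0.25. BCL3, an atypical nuclear IkB protein, rose by 0.47 (edgeR adjusted p = 6.81e-04), or 0.31 with scaling within chromosomes. NFKB1, IRF1, RELB, NFKBIE and PLAU did not pass, with log2 fold changes from -0.13 to 0.22.

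In the lists of immediate early, TGF-beta and developmental genes more wide peaks rose than fell, as over all wide peaks. Of 13 AP-1 and immediate early genes with a wide peak, 7 rose and 1 fell, with a median of 0.19. JUND, an AP-1 subunit, gave 20.1 and 20.7 CPM against 29.7 and 33.9 CPM (log2 fold change 0.64, SE 0.0873, edgeR adjusted p = 7.26e-07), and KLF4, a Kruppel-like factor, rose by 0.38 (SE 0.0824, edgeR adjusted p = 6.28e-04). EGR1 was the one that fell, by 0.16 (edgeR adjusted p = 0.0279), a call lost in DESeq2 (adjusted p = 0.0662) and without either sg1 replicate. DESeq2 called 5 of this list higher. Of 15 TGF-beta and BMP genes, 6 rose and 0 fell. They included SMURF1, a ubiquitin ligase for receptor-regulated SMADs, with 10.6 and 12.1 CPM against 22.2 and 21.5 CPM (log2 fold change 0.95, SE 0.104, edgeR adjusted p = 9.11e-09), and the inhibitory SMAD6 with 16.7 and 17.9 CPM against 27.8 and 26.3 CPM (0.65, SE 0.0901, edgeR adjusted p = 1.02e-06). SMAD1, SMAD2, SMAD4 and SKIL were the others that rose. The calls of SMAD1, SMAD2 and SMAD4 were lost in DESeq2 (adjusted p = 0.0509, 0.120 and 0.174), and those of all 4 were lost without sg1 replicate 2. The list's median of 0.11 lay below the 0.16 of all wide peaks. Of 14 developmental transcription factors 5 rose and 0 fell, led by GLI2, an effector of hedgehog signalling (0.90, SE 0.124, edgeR adjusted p = 8.75e-07), and SOX12 (0.56, SE 0.0868, edgeR adjusted p = 6.29e-06). DESeq2 called 3 of these 5, and lost HEY1 (adjusted p = 0.132) and SOX9 (0.0626). The shares of 6 of 15 and 5 of 14 are near the 37.6% of all wide peaks. In both lists edgeR found 0 lower peaks at an unadjusted p of 0.05, and so did DESeq2 at its adjusted threshold.

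Of 12 genes for ISWI partners and bromodomain proteins, the class to which CECR2 belongs, 6 rose and 2 fell, with a median of 0.23. BAZ1B, a partner of the ISWI ATPase SMARCA5, gave 28.7 and 26.4 CPM against 41.3 and 38.6 CPM (log2 fold change 0.53, SE 0.0769, edgeR adjusted p = 2.07e-06). TAF1, a bromodomain subunit of TFIID, gave 39.3 and 35.9 CPM against 21.9 and 24.2 CPM (-0.71, SE 0.0803, edgeR adjusted p = 2.08e-08), and lies in the lowered stretch of chromosome X. With scaling within chromosomes BAZ1B had 0.33 and TAF1 -0.42, both still called. SMARCA5 itself had 0.17 (edgeR adjusted p = 0.0629). BPTF, the large bromodomain subunit of another ISWI complex, rose by 0.29 (edgeR adjusted p = 0.00496), a call lost with scaling within chromosomes (0.14) and without sg1 replicate 2.

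Metabolic, stress and cell cycle lists were mixed. In the hypoxia and glycolysis list 5 of 13 wide peaks rose and 1 fell, with GAPDH at 0.37 (SE 0.0655, edgeR adjusted p = 4.53e-05) and ENO1 at 0.48 (SE 0.0923, edgeR adjusted p = 1.34e-04), both enzymes of glycolysis. GAPDH had 0.22 with scaling within chromosomes. In the stress list 5 of 11 rose and 1 fell, with TRIB3, a pseudokinase target of ATF4, at 0.58 (SE 0.0845, edgeR adjusted p = 2.77e-06) and SRXN1, which reduces oxidised peroxiredoxins, at 0.52 (SE 0.102, edgeR adjusted p = 1.74e-04). TRIB3 and SRXN1 lie on chromosome 20, where 72.3% of wide peaks rose, as does SOX12 of the developmental list. Their peaks start at positions 380521, 652390 and 323955, so they are not separate regions. With scaling within chromosomes they had 0.47, 0.42 and 0.46, all still called. Of 10 wide peaks at p53 targets 2 rose and 4 fell. TP53I3 gave 82.4 and 79.4 CPM against 55.9 and 57.9 CPM (-0.51, SE 0.0594, edgeR adjusted p = 4.00e-08), while MDM2, which degrades p53, rose by 0.53 (SE 0.0876, edgeR adjusted p = 2.01e-05). Of 6 cell cycle genes 2 rose and 1 fell: E2F1 at 0.46 (SE 0.0763, edgeR adjusted p = 1.79e-05), WEE1 at 0.19 (edgeR adjusted p = 0.0210), and CDK1 at -0.26 (SE 0.0734, edgeR adjusted p = 0.00747), a call lost without control replicate 1 or sg1 replicate 1. The WEE1 call was lost in DESeq2 (adjusted p = 0.0595) and without control replicate 2 or either sg1 replicate. Of 15 wide peaks at YAP and TEAD targets 4 rose and 1 fell, with TEAD1 at 0.44 (SE 0.0880, edgeR adjusted p = 2.21e-04). At cytosolic ribosomal protein genes 3 of 7 wide peaks rose and 0 fell, among them RPS19 at 0.41 (SE 0.0918, edgeR adjusted p = 8.49e-04) and RPLP1 at 0.38 (edgeR adjusted p = 0.00721). RPS19 had 0.25 with scaling within chromosomes, and the RPLP1 call was lost in DESeq2 (adjusted p = 0.0558) and without control replicate 2 or sg1 replicate 1. The ribosomal list had 0 lower peaks at an unadjusted edgeR p of 0.05 and in DESeq2 as well.

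Cell identity lists had few wide peaks. In the epithelial list 3 of 6 rose and 0 fell. Those that rose were the far end of KRT8 as above, GRHL2, an epithelial transcription factor (0.63, SE 0.138, edgeR adjusted p = 6.52e-04), and OCLN, a tight junction protein (0.34, edgeR adjusted p = 0.00628). ESRP2, EPCAM and DSP did not pass, with log2 fold changes of -0.15, -0.05 and -0.01. In the mesenchymal and matrix list 2 of 6 rose, COL1A1 (0.39, SE 0.0745, edgeR adjusted p = 1.17e-04) and FN1 (0.24, edgeR adjusted p = 0.0228), and the far end of VIM fell. COL1A1 had 0.25 with scaling within chromosomes. The FN1 call was lost in DESeq2 (adjusted p = 0.107) and without either sg1 replicate, and the OCLN call without control replicate 1 or sg1 replicate 2. CD14 and CORO1A of the haematopoietic list, and ACTA2 and KDR of the fibroblast and endothelial list, had wide peaks that did not pass, with log2 fold changes of 0.02 to 0.30; KDR alone had an unadjusted edgeR p under 0.05, and DESeq2 called 0 of these 4. The epithelial list had 0 lower peaks at that unadjusted p and in DESeq2.

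The number of called wide peaks depends on the tool and on the sg1 libraries. DESeq2 called 1129 higher and 217 lower, all of them also called by edgeR in the same direction, against 4.93% higher and 10.4% lower of the 171797 peaks it gave an adjusted p. Without sg1 replicate 1, edgeR called 1268 wide peaks higher and 176 lower, against 6.36% and 10.5% of all tested peaks. Without sg1 replicate 2 it called 1096 and 182, against 6.14% and 10.4%. In each of these fits more wide peaks rose than fell, while over all peaks more fell than rose.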

How the data were processed

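The 4 ATAC-seq libraries of LM2 cells, 2 per group, were analysed from a deposited table of raw counts per peak. Per the file headers, the authors ran featureCounts 1.6.0 without its paired option on cut-site files, so a count is 1 transposase cut and both ends of a fragment can be counted. The submitters' processing notes name Trimmomatic 0.39, Bowtie2, MACS2 2.2.4 and DESeq2 1.32; the sources used here do not give the genome build or say whether duplicates were removed. With RefSeq GRCh38.p14, 76.7% of wide peaks covered a listed start, against 2.07% and 1.93% after a shift of 100000 bp, so that build was used. Of 20033 protein-coding genes, 171 listed at scaffold positions were left out.

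Counts were tested over all peaks with edgeR 4.0.16 under R 4.3.3: filterByExpr, then TMM factors (0.981 to 1.02) and its quasi-likelihood test by group, with Benjamini-Hochberg adjustment at 0.05; 184717 peaks were tested, 5522 were too low and 109 on chromosome 1 were left out. The biological coefficient of variation was 8.13%. The SE is the log2 fold change over the square root of F. The fit was tested on simulated data.

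Named peaks are the 3 longest, the 3 tallest, the 8 largest changes per direction with groups apart and 30 or more scaled counts in the higher group, up to 2 per gene list, and the 3 genes with 2 wide peaks of greatest summed length. Windows were printed for the first 2 per direction and the first longest and tallest with an entry. Members and lists were chosen with earlier results of these data known. Alternatives were DESeq2 1.42.0, other scalings, no filter, a replicate block, other lengths and distances, and leaving out each library. Python 3.11.15 with pandas 2.3.3 and matplotlib 3.10.9 did the rest. Results at 2 genes of the lists are not reported here.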

Additional observations from a re-analysis of the deposited data

Results flagged for a closer look

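The excluded stretch at the start of chromosome 1, which no comparison of wide gene-end peaks used, held a mean of 25.4% of all counts in the sg1 libraries against 17.9% in the control libraries (n = 2 per group). It was singled out as a signal outside the main measurement that lies above the control level. With it kept in library sizes and tests, 1859 wide peaks rose and 328 fell.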

How the results depend on the processing

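Of wide peaks, 1834 rose and 327 fell. DESeq2 called 1129 and 217; a length of 1500 bp or more left 392 and 38, and leaving out 1 library gave 1096 to 1729 and 176 to 349. The median log2 fold change of 0.16 was 0.21 with library size only, 0.21 with loess offsets, 0.17 from 1500 bp and 0.15 to 0.19 without 1 library. Of narrow peaks, 701 rose and 446 fell, with 152 and 191 in DESeq2, 461 and 296 under 300 bp, 239 lower within 500 bp, and 267 to 732 and 221 to 422 without 1 library. Their median of 0.19 was 0.24 with library size only, 0.18 with scaling within chromosomes, 0.22 within 500 bp and 0.18 to 0.20 without 1 library. The listed genes' 50 higher and 22 lower wide peaks became 30 to 47 and 14 to 20 without 1 library. The share of counts in wide peaks (12.3% and 13.8%) was 10.1% and 10.3% with the chromosome 1 stretch kept, 12.2% and 13.6% within 500 bp, and 2.82% and 3.21% from 1500 bp; leaving out 1 library gave 12.3% to 12.3% and 13.7% to 13.8%. Stricter lengths and distances keep fewer peaks; the cause of the other shifts was not tested. With a replicate block, 1827 wide peaks rose and 325 fell (median 0.16); narrow peaks had 687 and 436. Same-numbered libraries did not deviate together over all tested peaks (r = -0.000258). This single correlation cannot show whether the numbers mark a shared batch or culture. Of 63 named peaks under 12 alternatives, NFYA turned its sign with scaling within chromosomes (0.0121), 28 calls were lost and 11 gained. Higher calls made 84.9% of called wide peaks, 83.2% to 90.7% over the alternatives to the fit. Among narrow peaks, the median SE of 0.322 limits what depth can show.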
